A study of Drosophila melanogaster with 12 samples.

Results

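The data described here were the genome-wide baseline of Polycomb-like (Pcl) binding in the sweet taste neurons of flies on a control diet, measured by targeted DamID in 3 replicates out of the 12 samples of the series. All 3 Dam::Pcl control diet samples were used, of 6 samples with a ratio file. The flies carried Gr5a;tubulinGAL80ts>UAS-LT3-Dam::Pcl, in which Gr5a-GAL4 drives Dam fused to Pcl in Gr5a-expressing neurons and a temperature-sensitive GAL80 under the tubulin promoter holds the transgene off until the flies are warmed. Male and female flies were collected 2 days after eclosion, kept on food with 5% sucrose from day 5 to day 6 at 20 °C, and then moved to 29 °C to induce Dam. The sample titles instead give 4 days on the diet, the study's methods differ from the labels on both the time and the temperature, and the sources used here do not settle which is right. Each replicate was 300 whole heads of both sexes together, so DNA of every head cell was in the extract and the restriction to Gr5a neurons rests on the driver. The denominator of each ratio came from flies with Dam alone (UAS-LT3-Dam), with the same driver and GAL80.

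Pcl is an accessory subunit of Polycomb repressive complex 2 (PRC2), which methylates a lysine on the tail of a core histone and thereby marks repressed chromatin. In Drosophila, Polycomb complexes are known to cover the Hox clusters and many genes of developmental transcription factors in broad domains, with the complexes recruited at short DNA elements inside those domains. In targeted DamID a bacterial adenine methyltransferase fused to the protein of interest marks GATC sites near its binding sites, and the free enzyme reports how accessible each site is. The value in every sentence below is log2(Dam::Pcl/Dam), a level on the scale set by the authors' normalization. On that scale 0 means as much methylation by the fusion as by the free enzyme, 1 means a doubling, and a negative value means less than Dam alone. This level measures binding relative to Dam and not expression, so cell type markers cannot be read from it as they can from RNA.

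The DNA under the highest signal is shown for 5 chromosome arms, with 1 depleted fragment to set beside it. Each line is the central 250 bases of the highest GATC fragment of a peak, on the + strand of dm6, chosen from the highest peak of the arm for which that fragment was at least 100 bp long and those bases overlapped no exon. Distances run from the middle of the printed bases. Capitals mark GAGAG (bound by GAGA factor), GCCAT (the core of the Pleiohomeotic site) and GTGTGT (a GT repeat linked to Combgap), and their reverse complements. The 2L fragment (chr2L:11447253-11447502) lies outside protein-coding genes, 1763 bp upstream of the start of salm, a zinc finger gene of wing and eye patterning, and had 8.83, 8.75 and 8.84 in replicates 1, 2 and 3. The 3L fragment (chr3L:14600762-14601011) lies outside protein-coding genes, 1346 bp upstream of HGTX, a homeobox gene, with 7.58, 7.39 and 7.51. The 3R fragment (chr3R:14656034-14656283) lies outside protein-coding genes, 442 bp upstream of l(3)L1231, with 7.64, 7.57 and 6.89, and its peak ranked 2 on the arm.
salm upstream: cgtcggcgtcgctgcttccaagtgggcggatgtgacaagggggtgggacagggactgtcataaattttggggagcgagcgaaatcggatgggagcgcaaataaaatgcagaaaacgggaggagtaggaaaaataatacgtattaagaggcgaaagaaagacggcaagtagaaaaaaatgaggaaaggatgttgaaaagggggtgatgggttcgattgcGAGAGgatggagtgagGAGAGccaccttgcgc
HGTX upstream: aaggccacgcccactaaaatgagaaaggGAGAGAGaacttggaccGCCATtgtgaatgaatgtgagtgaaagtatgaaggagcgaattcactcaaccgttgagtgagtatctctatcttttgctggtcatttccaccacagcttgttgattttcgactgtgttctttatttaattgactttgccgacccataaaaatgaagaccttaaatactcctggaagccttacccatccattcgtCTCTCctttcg
l(3)L1231 upstream: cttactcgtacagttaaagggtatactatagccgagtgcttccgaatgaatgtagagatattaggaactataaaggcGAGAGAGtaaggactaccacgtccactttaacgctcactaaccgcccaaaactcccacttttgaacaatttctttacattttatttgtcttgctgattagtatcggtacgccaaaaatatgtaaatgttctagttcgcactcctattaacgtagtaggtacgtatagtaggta
The fourth chromosome fragment (chr4:1104043-1104292) is in an intron of sv, a Pax gene, and had 5.75, 5.57 and 5.29. The X fragment (chrX:4426763-4427012) is in an intron of bi, the T-box gene omb, and had 7.04, 6.88 and 7.03 with 12 GAGAG and 3 GTGTGT matches. The comparison fragment (chr3R:5355568-5355817), in an intron of CG1161, was the lowest such fragment of the depleted domains on these arms, at -3.06, -2.52 and -3.14, and held none of the motifs.
sv intron: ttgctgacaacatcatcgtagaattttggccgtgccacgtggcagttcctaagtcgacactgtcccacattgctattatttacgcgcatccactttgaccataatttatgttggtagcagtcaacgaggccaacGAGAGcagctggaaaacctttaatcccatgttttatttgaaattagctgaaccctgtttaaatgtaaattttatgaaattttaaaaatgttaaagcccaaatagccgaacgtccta
bi intron: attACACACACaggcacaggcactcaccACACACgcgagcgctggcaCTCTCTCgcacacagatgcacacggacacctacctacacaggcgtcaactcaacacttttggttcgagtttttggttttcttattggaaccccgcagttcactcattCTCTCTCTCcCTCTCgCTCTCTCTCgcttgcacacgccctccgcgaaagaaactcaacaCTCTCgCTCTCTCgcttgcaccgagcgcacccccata
CG1161 intron: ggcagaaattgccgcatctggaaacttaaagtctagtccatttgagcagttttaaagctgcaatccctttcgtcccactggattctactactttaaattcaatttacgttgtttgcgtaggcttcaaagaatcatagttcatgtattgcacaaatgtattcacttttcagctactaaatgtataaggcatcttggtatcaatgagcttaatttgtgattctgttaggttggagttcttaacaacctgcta
The fragments were chosen by these values, so the gap between the bound fragments and the depleted one is no result.

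The deposited ratios covered 373710 GATC fragments on the 6 chromosome arms (median 196 bp, 133.868 Mb in all), each starting inside a GATC of the reference. Fragment values spanned -4.36 to 10.1 in replicate 1, -5.39 to 9.95 in replicate 2 and -5.08 to 9.13 in replicate 3. Exactly 0 was given to 11.1%, 11.1% and 10.9% of fragments in replicates 1, 2 and 3, and to 9.70% in all 3. The fragments at 0 in all replicates were short, with a median of 109 bp against 208 bp for the others, and no fragment was 0 in one replicate and negative in another. That last pattern means the replicates may share a denominator, in which case the spread between them need not hold the variation between Dam-only samples. The files hold ratios without read counts, so depth is unknown and an exact 0 cannot be told from a lack of data. The labels call the 3 samples biological replicates, and the p-values below cover the spread between them.

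Replicates ranked the genome alike. Each of 18119 genes was given its annotated span and a further 1 kb at either end, and Pearson's r across genes was 0.983 between replicates 1 and 2, 0.971 between 1 and 3, and 0.974 between 2 and 3, and over 13390 bins of 10 kb it was 0.992, 0.983 and 0.985. These correlations are across positions of 1 genome, which are not independent replicates. The SD between replicates had a median of 0.0938 over genes, with 95% of genes under 0.247. Replicate 3 ran lower than the others where binding was strong. Among 192 genes with a mean of at least 3, replicate 3 was the lowest in 92.7% and replicate 1 the highest in 80.2%, with a median SD of 0.219, against 0.0869 in the 6929 genes between 0 and 0.5. Among the 314 genes under -1 it was replicate 2 that was lowest, in 62.1%.

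The level per gene was a narrow bulk around 0 with a long tail upward. The median gene stood at 0.04, the middle portion of genes lay between -0.25 (25th percentile) and 0.33 (75th percentile), and the 95th and 99th percentiles were 1.40 and 3.04. The lowest gene was at -2.16 and the highest at 6.66. By limma's moderated test against 0 with Benjamini-Hochberg adjustment, 6655 genes (36.7%) were above Dam and 5527 (30.5%) below it. A test against a log2 ratio of 1 kept 864 genes above 1 (4.77%) and 74 below -1 (0.408%), so most calls were of small size. The shares depend on where the authors' normalization put 0, as described with the processing.

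**Figure D1:**
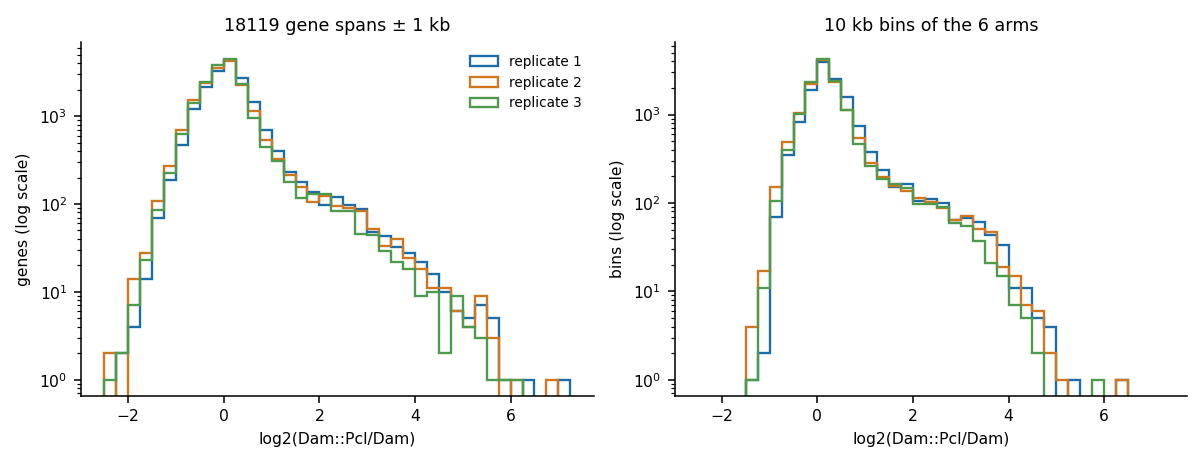
Number of gene spans ± 1 kb (left) and of 10 kb bins (right) by log2(Dam::Pcl/Dam) in each of the 3 replicates, on a logarithmic count axis. The bulk lies near 0 in all replicates, the upper tail reaches further than the lower, and replicate 3 falls below the others at the upper end.

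The level differed between gene types. The 3224 ncRNA genes had a median of 0.25, with 10.4% above 1 by the limma test against 1, and the 13941 protein-coding genes a median of 0.00 with 3.49% above 1. tRNA genes (286) stood at a median of 0.27 and snoRNA genes (269) at -0.09. Of the ncRNA genes 13.03% had at least 50% of their span in a bound domain (defined below), and of the protein-coding genes 5.04%, and since spans overlap these are not separate binding events.

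Among protein-coding genes the highest was CG33798 (FBgn0053798, 2R), with 7.05, 6.98 and 5.95 in replicates 1, 2 and 3, a mean of 6.66 ± 0.62 (SD, n = 3). Replicate 3 was a full log2 unit below the others there, and the span holds only 2 GATC fragments. CG18599 (FBgn0038592, 3R), a homeobox gene, followed with 5.48, 5.38 and 5.09, a mean of 5.32 ± 0.20. CG9016 at 5.31 ± 0.24, CG44355 at 5.28 ± 0.22, CG43880 at 5.27 ± 0.30 and CG46448 at 5.02 ± 0.22 completed the highest group, and of these CG43880 lies 1864 bp from exex, a homeobox gene of motor neurons. CG33798 had the widest spread of these 6 genes. In the other 5 the SD ran from 0.20 to 0.30, above the median of 0.0938 over all genes, with replicate 3 the lowest in each.

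Several of the others encode transcription factors with known developmental roles. The fork head gene fd96Cb had 5.12, 5.02 and 4.84 (mean 4.99 ± 0.14). The homeobox gene bsh, known from brain development, had 4.83, 4.84 and 4.39, and Six4, needed for mesoderm and muscle development, had 4.74, 4.68 and 4.13. The odd-skipped family gene drm had 4.45, 4.29 and 4.25, the segment polarity gene en 4.18, 4.08 and 4.11, and the pair-rule gene slp1 4.06, 4.05 and 4.02. In en and slp1 the replicates nearly coincided, with an SD of 0.05 in en and 0.02 in slp1. Glass (gl), a zinc finger factor of photoreceptor development, averaged 4.10 ± 0.31, and Hand, a heart bHLH factor, 3.96 ± 0.56, with replicate 3 at 3.31 against 4.29 and 4.27 in replicates 1 and 2. The 25 genes were chosen by the values that limma tests, so their calls above Dam restate the choice.

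Of the 25 highest protein-coding genes, 7 were in the developmental lists described below and 18 were not. The lists do not hold every developmental regulator, and gl and Hand were among those left out. Of those 18, 2 lay within 20 kb of a listed gene, against 6.99% of the 13742 protein-coding genes outside the lists. CtsL4, a cathepsin L family gene at 4.16, lies 838 bp from CG34367, a listed homeobox gene, and fzo, a mitofusin of the male germline, stood at 4.04. The 25 were short (median 1157 bp, against 2167 bp for all protein-coding genes), 15 carried only a CG symbol, and 10 were covered by under 10 fragments. Of all genes, 5.68% touched a peak common to the 3 replicates and 6.52% had at least 50% of their span in a bound domain, both defined below. All 25 did both, which follows largely from the choice, since peaks and domains come from the same ratios. Replicate 3 was the lowest in 23 of the 25. Which genes filled the 25 depended on the window, since 11 of them stayed with 5 kb flanks and 8 with 1 kb around the start, and drm and CG18599 were the 2 that stayed under every alternative. The gene just below the 25, Abd-B, was at 3.91, and the last one inside, CG43750, was at 3.93.

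**Figure D2:**
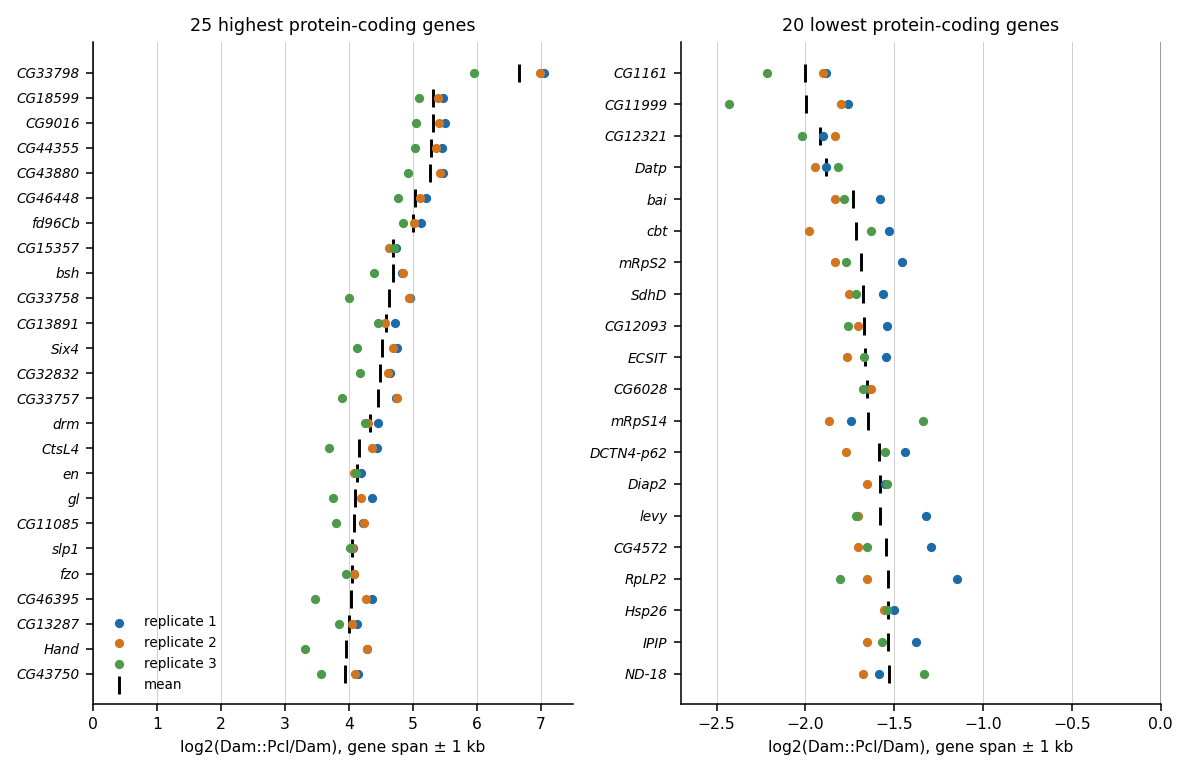
Level as log2(Dam::Pcl/Dam) across each gene ± 1 kb for the 25 highest (left) and 20 lowest (right) protein-coding genes, with 1 point per replicate and a bar at the mean. The highest genes run down to 3.93 with replicate 3 mostly the lowest, and the lowest genes lie between -2.00 and -1.53.

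At the other end the 20 lowest protein-coding genes, chosen by the same values, had SDs from 0.0219 to 0.377. CG1161 had -1.88, -1.90 and -2.22 (mean -2.00 ± 0.19), and CG11999 -1.76, -1.80 and -2.43 (mean -2.00 ± 0.38). Of the genes with a well-known role, bai (a p24 family cargo receptor) stood at -1.73 ± 0.13, cbt (a zinc finger factor) at -1.71 ± 0.24, Diap2 (an inhibitor of apoptosis) at -1.58 ± 0.06 and Hsp26 (a small heat shock protein) at -1.53 ± 0.03. mRpS2 (-1.69 ± 0.20) and mRpS14 (-1.65 ± 0.28) encode proteins of the mitochondrial ribosome, SdhD (-1.68 ± 0.10), levy (-1.58 ± 0.23) and ND-18 (-1.53 ± 0.18) subunits of the respiratory chain, and ECSIT (-1.66 ± 0.11) an assembly factor of that chain. No list of mitochondrial genes was tested. RpLP2, a stalk protein of the cytoplasmic ribosome, had -1.15, -1.65 and -1.80, a mean of -1.54 ± 0.34. The median GC content of the 20 was 47.6% against 43.8% for all protein-coding genes and 41.7% for the 25 highest.

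Of the other gene types, lncRNA:CR44308 had 6.34, 6.21 and 6.23 (mean 6.26 ± 0.07) and lies 914 bp from drm. lncRNA:CR44032 (5.68 ± 0.08) lies 581 bp from C15, lncRNA:CR45559 (5.54 ± 0.18) 2791 bp from Antp and lncRNA:CR44334 (5.44 ± 0.10) 2709 bp from rn, while lncRNA:CR45415 stood at 5.60 ± 0.27. The lowest was the locus FBtr0309611_df_nrg at -2.16 ± 0.18, with mir-4970 at -2.10 ± 0.17 and asRNA:CR45007 at -1.65 ± 0.09. Since gene spans here can overlap each other, neighbours can share fragments and therefore values.

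Genes were then grouped into 29 lists by family and function, 11 of them of developmental regulators. The lists are chosen sets, need not hold every member of a family, and the counts below are of listed genes. Members called above or below Dam are read against 36.7% and 30.5% of all genes, and the medians against 0.04 over all genes. By limma each of the 8 Hox genes was above Dam, with a list median of 2.64. Abd-B, the most posterior of them, had 4.06, 3.98 and 3.68 (3.91 ± 0.20), abd-A had 3.35, 3.29 and 3.03 (3.22 ± 0.17) and Antp 2.96, 2.87 and 2.69 (2.84 ± 0.14). Ubx stood at 2.70 ± 0.10, lab at 2.58 ± 0.17, Scr at 2.48 ± 0.18, pb at 2.46 ± 0.19 and Dfd at 2.13 ± 0.23. The 3 genes of the bithorax complex ranked in their order on the chromosome from Abd-B to abd-A to Ubx, and Abd-B exceeded abd-A by more than the spread of either.

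The GATA family, factors of blood, gut and dorsal patterning, split. pnr (2.87 ± 0.17), GATAe (2.69 ± 0.05), grn (2.56 ± 0.10) and srp (2.24 ± 0.10) were all above Dam, and GATAd had 0.39, 0.07 and -0.24, which straddles 0. In the T-box family all 8 genes were above Dam and ran from Doc3 (2.60 ± 0.12), mid (2.58 ± 0.04), bi (2.09 ± 0.08), H15 (2.01 ± 0.01), Doc1 (1.80 ± 0.18) and Doc2 (1.36 ± 0.06) down to org-1 (0.54 ± 0.02) and byn (0.51 ± 0.12).

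Of the 69 other homeobox genes listed, 67 were above Dam and 0 below, with a median of 2.28 and a range from CG18599 down to exd, a Hox cofactor, at 0.12, 0.18 and -0.08. All 10 Pax genes were above (median 2.40), from sv at 3.38 ± 0.49 to prd at 1.11 ± 0.03. Of 17 fork head genes 14 were above and FoxK below (-0.54 ± 0.13), of 8 Sox genes 7 were above, with D at 3.88 ± 0.37 and Sox14 below at -0.59 ± 0.09. Gap and pair-rule genes (13 of 14 above, median 1.82) and appendage patterning genes (19 of 20 above, median 1.49) were also high, and 13 of 16 proneural bHLH genes were above with a median of only 0.32. That list ran from Fer1 (3.38 ± 0.32) to sage, which was called below Dam at -0.24 ± 0.10 but not without replicate 1 or without replicate 2. Secreted signal genes stood at a median of 0.43 (16 of 24 above, 2 below), from Wnt10 (1.96 ± 0.12) and wg (1.66 ± 0.09) to spi, an EGF receptor ligand, at -0.30 ± 0.03, though at 0.17 in the window of 1 kb around its start. Hence the developmental lists differed among themselves, from medians above 2 for Hox, GATA, Pax, homeobox, fork head and Sox genes to medians under 0.5 for secreted signals and proneural factors. Of the 199 genes of the 11 lists, 72.4% touched a common peak, against 5.68% of all genes. In a bound domain, 61.3% had 50% of their span, against 4.22% of the other protein-coding genes. A longer span can touch more peaks, and length was not adjusted for. Median lengths ran from 1716.5 bp (proneural) to 30563 bp (Hox) over these lists, against 1661 bp over all genes.

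**Figure D3:**
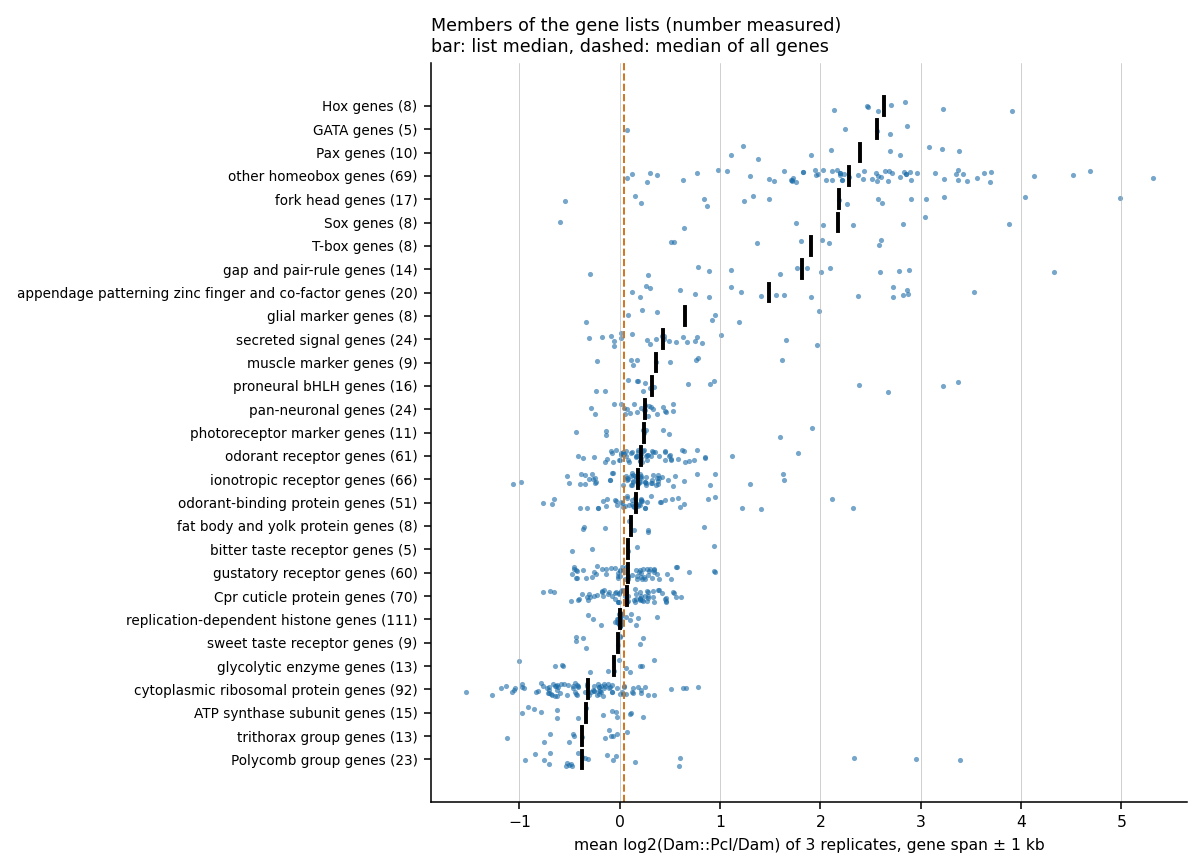
Mean log2(Dam::Pcl/Dam) of 3 replicates, per gene ± 1 kb, for each member of the 29 gene lists, with a bar at each list's median and a dashed line at the median of all genes. Hox, GATA, Pax and homeobox genes stand above 2 in the median, while ribosomal protein, ATP synthase, trithorax and most Polycomb group genes lie below the dashed line.

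The Polycomb group was itself divided. Of 23 genes, 15 were below Dam and 5 above, with a median of -0.38. The highest were Su(z)2 (3.42, 3.39 and 3.36), ph-p (3.03, 2.87 and 2.97) and Psc (2.38, 2.35 and 2.27), which encode components of the other main Polycomb complex, PRC1. ph-d (0.60 ± 0.08) and jing (0.59 ± 0.04) were also above Dam, though ph-d stood at -0.02 when its flanks were left out. jing encodes a partner of Jarid2 in a form of PRC2, while the genes for Pcl and the core PRC2 subunits were below Dam.

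Pcl itself had -0.53, -0.45 and -0.54, a mean of -0.51 ± 0.05 (adjusted p = 0.0016 by limma). E(z), the catalytic subunit of PRC2, averaged -0.41 ± 0.02, Su(z)12 -0.71 ± 0.15, esc -0.38 ± 0.10, escl -0.85 ± 0.03, Caf1-55 -0.48 ± 0.03 and Jarid2 -0.53 ± 0.03. Other members below were phol (-0.94 ± 0.20), Asx (-0.76 ± 0.09), caly (-0.70 ± 0.15), Spps (-0.53 ± 0.08), Sce (-0.48 ± 0.06), Scm (-0.35 ± 0.15), Kdm2 (-0.32 ± 0.09) and Pc (-0.12 ± 0.03), the last of which was called in the full set but lost its call without any 1 of the replicates. Scm lost it without replicate 2 or without replicate 3, and stood above 0 with 5 kb flanks (0.10) and in the window of 1 kb around its start (0.30). In that last window Jarid2 (0.0177) and Kdm2 (0.0277) were also just above 0. The remaining members, pho (0.15 ± 0.19), cg (-0.03 ± 0.08) and Sfmbt (-0.06 ± 0.16), were not called. Trithorax group genes, which counter Polycomb, had 8 of 13 below and 0 above Dam by limma, with a median of -0.38, the lowest Snr1 at -1.12 ± 0.02 and the highest osa at 0.08 ± 0.06.

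Taste receptor genes were near 0. Of 9 sweet receptor genes 1 was above Dam and 4 below, with a median of -0.01. Gr5a, whose GAL4 drives the transgene, had 0.28, 0.28 and 0.15, a mean of 0.23 ± 0.08 (adjusted p = 0.0150 by limma), and this call was lost without replicate 1 and without replicate 2. Gr61a (0.20 ± 0.14), Gr64d (0.00 ± 0.04), Gr64e (0.00 ± 0.04) and Gr64f (-0.01 ± 0.07) were not called. Gr43a (-0.33 ± 0.18), Gr64a (-0.37 ± 0.05), Gr64b (-0.43 ± 0.03) and Gr64c (-0.43 ± 0.03) were below Dam. Gr64b and Gr64c are neighbours whose windows hold the same 23 fragments, so they count as 1 measurement. Gr43a lost its call without replicate 1 and without replicate 2, and Gr64a stood at 0.37 in the window of 1 kb around its start.

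Of the 5 bitter receptor genes, Gr33a was above Dam with 0.99, 0.97 and 0.85 (mean 0.94 ± 0.08). Gr39a (0.18 ± 0.13) and Gr89a (0.09 ± 0.12) were not called, and Gr66a (-0.27 ± 0.14) and Gr32a (-0.47 ± 0.09) were below, with the Gr66a call lost without replicate 1 and without replicate 3. Across the whole families, 24 of 60 gustatory receptor genes were above and 14 below (median 0.08), 36 of 61 odorant receptor genes above and 5 below (median 0.21), and 35 of 66 ionotropic receptor genes above and 14 below (median 0.18). Of these 3 families the odorant receptors had the share above Dam farthest from the 36.7% of all genes. The families ran from Gr9a (0.95 ± 0.10) to Gr32a, from Or67d (1.78 ± 0.15) to Or45b (-0.42 ± 0.06) and from Ir7d (1.64 ± 0.13) to Ir51b (-1.06 ± 0.04). Odorant-binding protein genes had 27 of 51 above and 9 below (median 0.16), from Obp99c (2.33 ± 0.17) to Obp93a (-0.77 ± 0.11).

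Lists for other head tissues were read as levels only. Glial genes had a median of 0.65 (6 of 8 above), led by the glial fate gene gcm2 (1.98 ± 0.25), with repo at 0.92 ± 0.10, Gs2 at 0.37 ± 0.16 and moody below Dam at -0.34 ± 0.12. Muscle genes (7 of 9 above, median 0.36) ran from Act57B (1.62 ± 0.05) to Mlc2 (-0.23 ± 0.07), a call that was lost without replicate 2 or 3 and a level that was 0.0790 within 1 kb of the start, and Mhc was at 0.17 ± 0.02. Photoreceptor genes (8 of 11 above, median 0.24) ran from Arr2 (1.91 ± 0.08), the visual arrestin, to Rh6 (-0.44 ± 0.05). Pan-neuronal genes stood at 0.25 in the median (16 of 24 above, 2 below), all within the range from -0.28 (Csp, at 0.0145 without flanks) to 0.53 (eag). Fat body and yolk protein genes had a median of 0.11, with 4 of 8 above and 3 below, the highest Fbp1 at 0.85 ± 0.05.

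Ribosomal protein and ATP synthase genes were below Dam more often than the 30.5% of all genes. Of 92 cytoplasmic ribosomal protein genes 57 were below Dam and 8 above (median -0.32), from RpS23 (0.78 ± 0.14), inside a bound domain, to RpLP2. ATP synthase genes had 9 of 15 below and 2 above (median -0.33), the lowest ATPsyngamma at -0.97 ± 0.13. Glycolytic enzyme genes were closer to all genes, with 5 of 13 below and 1 above (median -0.06), the lowest PyK at -1.01 ± 0.15. Cpr cuticle protein genes were also close to all genes (median 0.07, 29 of 70 above and 12 below). They ran from Cpr65Eb at 0.61 ± 0.12, which was -0.139 without flanks, to Cpr64Ad at -0.76 ± 0.15. Of the 111 replication-dependent histone genes, which are near-identical repeats, 3 were above and 3 below. Their median level was exactly 0 in every replicate and their median SD was 0. Across all 18119 genes tested, 197 had an SD of exactly 0. Without read counts an exact 0 cannot be told from a lack of data, so it is not read here as equality with Dam.

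Bound domains were runs of adjacent 10 kb bins with a level of at least 1 in each replicate. There were 378, covering 12.01 Mb or 8.97% of the measured genome. Of these, 176 were single bins, 57 were 2 bins and 145 were broad (30 kb or more), and the broad domains held 75.9% of the bound length. The median width was 20 kb, 20 domains were 100 kb or wider and the widest was 390 kb. Broad domains had a median level of 2.16 and single-bin domains 1.37. A gene of the developmental lists lay in 67 of the 145 broad and in 10 of the 176 single-bin domains. Broad domains are longer and have more room for any gene, and these counts were not adjusted for length. The lists also leave out some developmental genes, such as pros. No protein-coding gene was counted in 10 broad domains and in 130 of all 378 bound domains. In these counts a gene belonged to a domain if at least 50% of its span was inside. A domain within a longer gene can therefore count as empty, and such cases were not counted apart. There were also 144 bins with a mean of 1 or more that failed in at least 1 replicate, and in 117 of them replicate 3 was under 1.

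The widest domain (3R:6660001-7050000) was the Antennapedia complex, with 20 protein-coding genes, among them lab, pb, zen, bcd, Dfd, Scr, ftz and Antp, and with 45 common peaks. It averaged 2.76, 2.70 and 2.41 in replicates 1, 2 and 3 (2.62 ± 0.19). The bithorax complex (3R:16660001-16990000, 330 kb) with Ubx, abd-A and Abd-B also held 45 peaks and stood at 3.39, 3.32 and 3.07 (3.26 ± 0.17). In every replicate it was higher than the Antennapedia complex. Further wide domains were H15 and mid (180 kb, 2.13 ± 0.07), hth, a Hox cofactor (170 kb, 1.88 ± 0.10), ara, caup and mirr, the Iroquois homeobox genes (160 kb, 2.49 ± 0.14), tsh (140 kb, 2.49 ± 0.18), CG43689 on X (130 kb, 2.43 ± 0.13), pros, a neuronal differentiation factor (130 kb, 2.21 ± 0.13), dac, an eye and leg factor (130 kb, 2.19 ± 0.12), and inv with en (120 kb, 2.60 ± 0.07).

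The strongest domain was a single bin at CG18599 (3R:18260001-18270000), with 6.43, 6.34 and 5.92 (6.23 ± 0.27). Next were the 30 kb domain of CG43880 and exex (3L:7940001-7970000) at 3.80 ± 0.25, the 100 kb domain of CG33798 (2R:12950001-13050000) at 3.42 ± 0.16 with 15 common peaks and no listed gene, and the bithorax complex. Single-bin domains of Six4 (3.22 ± 0.27) and Fer1 (3.11 ± 0.33), a 20 kb domain of the gap gene hkb (3.13 ± 0.30), a 50 kb domain of CG44355 (3.15 ± 0.22) and a 40 kb domain of rib (3.09 ± 0.12) were also among the 10 strongest. The remaining one was a bin on 3L (3L:24720001-24730000) with no protein-coding gene counted in it, at 3.39, 3.34 and 2.58, where replicate 3 stood apart from the others.

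**Figure D4:**
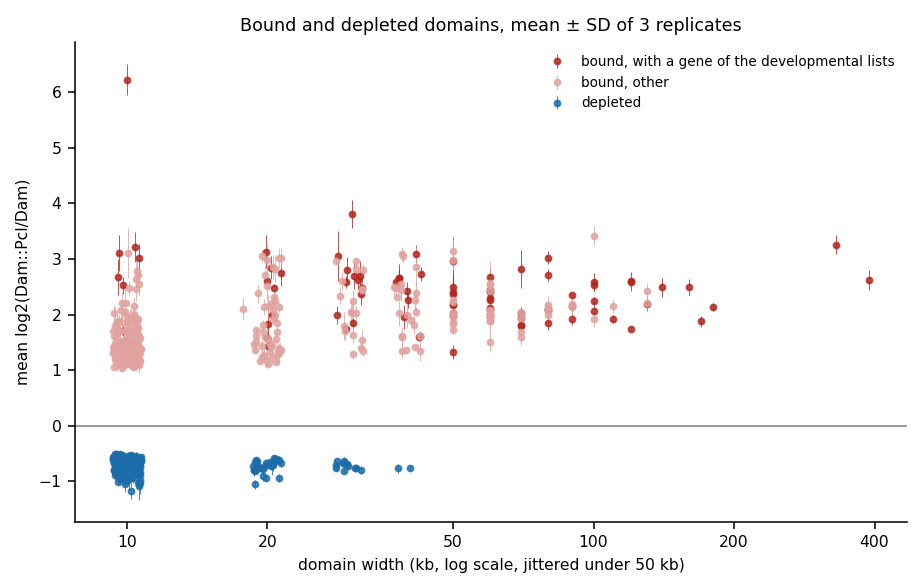
Mean log2(Dam::Pcl/Dam) with SD of 3 replicates against width in kb (log axis) for bound domains with a gene of the developmental lists, other bound domains and depleted domains. The 390 kb and 330 kb domains of the Hox complexes are the widest, and the single bin at 6.23 is CG18599.

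Domain edges were sharp at the resolution of the bins. Over the 290 edges of broad domains the level averaged 0.32 from 10 to 5 kb outside, 0.67 in the last 5 kb outside, 1.72 in the first 5 kb inside and 2.44 from 5 to 10 kb inside, and 2.19 at 35 to 40 kb inside in the 68 edges that reach so far. The edges were placed by the same values, so this profile describes how quickly the level changes and tests nothing.

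Depleted domains, defined by at most -0.5 in each replicate, were smaller and scattered. There were 292 (3.52 Mb, 2.63% of the genome), 248 of them single bins, 14 of at least 3 bins and none wider than 40 kb. The lowest was the bin at Bruce (3R:10320001-10330000), a large inhibitor of apoptosis, with -1.04, -1.33 and -1.14 (-1.17 ± 0.15). The domains of MED15, a Mediator subunit (-1.08 ± 0.26), and S6k, a kinase of growth signalling (-1.05 ± 0.13), followed. Then came those of pcm, an exoribonuclease (-1.05 ± 0.08), and Mlf (-1.03 ± 0.07). These levels are of the domains, and each is named by its protein-coding gene with the highest level, not the lowest. Mlf itself stood at -0.88. Of the lowest genes named above, cbt (-1.71) lies in the domain of MED15, Diap2 (-1.58) in that of Mlf and ND-18 (-1.53) in that of pcm. Protein-coding genes were dense there, at 29.0 per 100 kb, against 5.84 per 100 kb in bound domains and 10.4 per 100 kb over all bins. The domain figures count genes with at least 50% of their span inside, whereas the figure over all bins counts every gene. Of all genes, 6.32% had 50% of their span in a depleted domain, and of the 199 listed genes 1 did. The count was sensitive to the zero point, rising to 580 when each sample was centred on its median bin.

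Common peaks were intervals called in all 3 replicates by the procedure of the study's methods. There were 1505, covering 4.47 Mb (3.34% of the genome), from 1682, 1703 and 1764 in replicates 1, 2 and 3. Their median width was 2297 bp, with 5th and 95th percentiles of 580 and 7610 bp, and 26 were at least 10 kb. The median height was 3.40 and the median SD 0.193, and replicate 1 exceeded replicate 3 by 0.30 on average over the peaks. In all, 1326 peaks (88.1%) lay in bound domains, and these were wider (median 2540 bp) and higher (3.45) than the 179 outside (1357 bp and 2.99). Since domains and peaks come from the same values, this overlap is a description.

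The highest peak (3L:14599321-14601121) lay outside protein-coding genes near HGTX, with 7.05, 6.85 and 6.53 (6.81 ± 0.27). Next was a peak outside protein-coding genes near Map205 (6.34 ± 0.54), at 3R:32068472-32073703, close to the end of the 32.0789 Mb arm. Its highest fragment was very short (3R:32072938-32072949), and the peak held 18 fragments. Then came a peak near salm (6.29 ± 0.21), one in bsh (6.25 ± 0.54) and those of CG13287 (6.19 ± 0.14) and drm (6.17 ± 0.07). In the drm peak the replicates were 6.21, 6.09 and 6.21, the closest of these. Peaks at Awh (5.94 ± 0.13), dac (5.93 ± 0.05), Dr (5.87 ± 0.06), Drgx (5.86 ± 0.14) and bi (5.83 ± 0.13), all transcription factor genes, were also in the top 15. The widest peak (22729 bp) covered the Abd-B region at 4.25 ± 0.24. Antp held 17 peaks, the most of any protein-coding gene, and lncRNA:CR32773, which overlaps bi, held 25.

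Peak summits lay outside protein-coding genes more often than the genome as a whole, and near gene starts about as often. The highest fragment was outside such genes and away from their starts for 46.4% of peaks (28.3% of the genome is), in a gene for 37.5% (55.2% of the genome) and within 1 kb of a start for 16.1% (16.5% of the genome). The 1326 peaks in bound domains and the 179 outside them differed. In bound domains 48.7% of summits were outside genes and 14.4% were near a start. Outside bound domains these shares were 29.1% and 28.5%, so there summits were near starts more often than the genome. Gene density inside the domains was not adjusted for. Around the summits the level averaged 3.98 and 3.97 in the 0.5 kb to the left and right in bound domains, with 2.06 and 2.09 at 5 kb, while outside bound domains it was 2.81 and 2.83 at the summit and 0.47 and 0.79 at 5 kb. At starts of the developmental list genes it averaged 3.09 from 1 to 0.5 kb upstream, against 0.17 for all protein-coding genes and -0.18 for ribosomal protein genes. Ribosomal protein genes dipped to -0.54 from 0.5 to 1 kb downstream of the start.

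**Figure D5:**
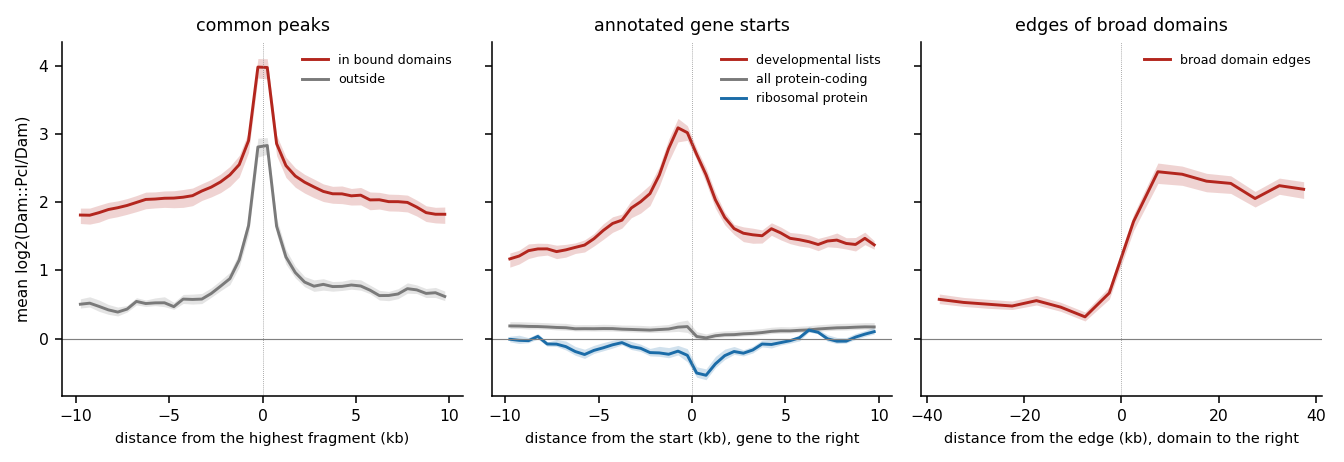
Mean log2(Dam::Pcl/Dam) of 3 replicates by distance from the highest fragment of common peaks (left), from annotated gene starts (middle) and from the edges of broad bound domains (right), with shading over the range of replicates. Peaks in bound domains stand on a raised base near 2, and starts of developmental genes reach 3.09 while ribosomal protein genes fall below 0.

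The motifs marked in the printed sequences were found under peaks at shares close to those of the genome, GAGAG and GTGTGT somewhat above. In 300 bp windows at the 1505 summits, GAGAG on either strand was in 34.1% (45.0% at the 151 highest). It was in 30.7% of windows in bound domains and 30.2% of 445433 windows of the genome. GCCAT was in 48.4% of summits (45.0% at the 151 highest), 49.5% of windows in bound domains and 47.6% of all windows. GTGTGT was in 22.3% of summits (20.5% at the 151 highest), 20.3% of windows in bound domains and 17.8% of all windows. Windows with none of the motifs were 27.4% of summits and 30.3% of all windows, and 30.8% of windows in depleted domains held GAGAG. The motifs can overlap each other in a window, a match is a description of the letters and not of a site, and none was tested.

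Arms differed in level. The fourth chromosome had the highest median over genes, 0.36, and 21.5% of its length in bound domains, against 5.81% on 2R, 6.76% on 3L and 10.2% to 10.7% on 2L, 3R and X. Its median bin was 0.48, 0.39 and 0.15 in replicates 1, 2 and 3, so replicate 3 was lower there too, and in replicate 3 the median bins of 2L (0.22) and X (0.19) were higher. Its median over genes was 0.55, 0.43 and 0.13. It held 50 common peaks (37.1 per Mb) and no depleted domain. Medians over genes on the other arms lay between 0.00 (2R) and 0.10 (2L). Binding level and GC content were inversely related over genes (r = -0.338, rho = -0.475 over 18119 genes, which share 1 genome and the same libraries), with a median of 0.28 in the 3624 genes of lowest GC and -0.31 in the 3624 of highest GC. Base composition was not adjusted for, and its part in the differences between lists and arms was not tested.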

How the data were processed

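Targeted DamID was run in heads of flies with Dam::Pcl or Dam alone in Gr5a neurons, and the 3 Dam::Pcl control diet files were used. The 3 sugar diet ratio files were not used, and Dam-only samples enter only through the deposited ratios. The deposited values are log2(Dam::Pcl/Dam) per GATC fragment, made by the authors with damidseq_pipeline after alignment with Bowtie2 to BDGP6 (dm6). The Bowtie2 version, the pipeline's normalization option and which Dam-only sample was the denominator of which file are not given in the sources used here. The zero point is the authors' and moves every level and call. The files hold ratios without counts, so depth is unknown and no counting interval can be given.

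Fragments were averaged with length weights over Ensembl genes (BDGP6.54, release 115) with 1 kb on each side, and over 10 kb bins of the 6 arms. Of 18164 genes, the 18119 with at least 2 fragments were tested with limma 3.58.1 (R 4.3.3) against 0, with Benjamini-Hochberg adjustment and a threshold of 0.05. Bound domains needed at least 1, and depleted domains at most -0.5, in every replicate. Peaks followed the find_peaks procedure of the methods per replicate (quantiles 0.95 to 0.99 in steps of 0.01, FDR under 0.01, at least 2 consecutive fragments), where FDR is the ratio of the number of runs in 100 shuffles to the number observed, and common peaks are intervals in all 3 replicates. Python 3.11.15 with numpy 2.4.6, pandas 2.3.3 and matplotlib 3.10.9 was used. Sequences were read from the reference genome, with motifs sought on both strands.

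The genes named are the 25 highest and 20 lowest protein-coding genes, the 5 highest and 5 lowest of other types, the strongest gene of the 10 strongest and 10 widest domains, all Hox, GATA, T-box, Polycomb group, sweet and bitter receptor genes, the highest and lowest of every other list, and Pcl. Genes at the edges of those sets and further peak, domain and list members were added after their values were seen. Members and lists were chosen with earlier results of these data known. Alternatives tried were other windows, filters, weights, scalings, thresholds, bin sizes, peak settings and leaving out each replicate.

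On simulated data over 18119 genes, limma recovered 68 of 100 genes set at a log2 ratio of 1 and 38 of 100 set at -0.5, with 0 false calls. All other genes were set at 0 with independent noise, whereas in the data 36.7% of genes were called above and 30.5% below Dam. The peak procedure recovered 175 of 200 peaks of 5 fragments raised by 3, with 3 false. Those peaks were planted in shuffled values, the same background that the procedure assumes. Hence these rates check the code and need not hold for the data.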

Additional observations from a re-analysis of the deposited data

How the results depend on the processing

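No paired analysis was possible because only 1 group is described. Counts of genes above Dam were 6655 in the full set and 864 against a log2 ratio of 1, 4430 at an adjusted p under 0.01 by limma and 4363 with at least 10 fragments; below Dam they were 5527 and 74 against a ratio of 1. Leaving out 1 replicate gave 4671 to 6201 above and 3883 to 5003 below. Leaving out genes with the same value in all samples, an alternative chosen after seeing the data, gave 6867 above and 5637 below. Of the 25 highest genes, 11 stayed with 5 kb flanks, 8 with 1 kb around the start, 15 with at least 10 fragments, 16 unweighted and 24 without any 1 replicate.

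The 378 bound domains (12.01 Mb, 145 broad) became 816 with 5 kb bins, 208 with 20 kb bins and 1036 at a threshold of 0.5 (25.7 Mb, 239 broad). Bound length was 7.83 Mb at a threshold of 1.5 and 4.82 Mb at 2, with 46 broad domains at 2. Without 1 replicate there were 380 to 426 domains, 12.1 to 13.5 Mb and 146 to 154 broad. The 292 depleted domains (3.52 Mb) became 828 (5.31 Mb) with 5 kb bins, 82 (1.72 Mb) with 20 kb bins, 735 (11.1 Mb) at -0.25, 3 (0.03 Mb) at -1 and 580 (8.28 Mb) with each sample centred on its median bin, and 300 to 371 (3.60 to 4.56 Mb) without 1 replicate. Common peaks numbered 1175 to 2187 over the alternatives, and their 4.47 Mb became 8.10 Mb with quantiles from 0.90 and 4.60 to 4.90 Mb without 1 replicate.

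Of 29 lists, 22 had a median above that of all genes, 20 in the window around the start, where the bitter receptor (-0.23) and fat body (-0.02) medians changed sides, and 22 after centring. Of 2622 values of 178 named genes under alternatives, 2433 kept their side of the threshold, and 140 lost and 38 gained a call. Direction was followed only for the 163 genes called in the full set, and 11 of their values changed sign. Those were, without flanks, Cpr65Eb -0.139, Csp 0.0145 and ph-d -0.0153; with 5 kb flanks, Scm 0.10; and within 1 kb of the start, Gr64a 0.37, Jarid2 0.0177, Kdm2 0.0277, Mlc2 0.0790, Mlf 0.0386, Scm 0.30 and spi 0.17. The cause was not tested. Short spans rest on few fragments, and the denominators limit the error shown.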
